A study of Mus musculus with 12 samples.

Results

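The NRF2 and glutathione antioxidant genes were 10 genes chosen by name, with no threshold on their values, in a list drawn up with earlier results of these data known: the transcription factor gene Nfe2l2, its inhibitor Keap1, the glutathione synthesis genes Gclc, Gclm and Gss, the glutathione reductase gene Gsr, and the NRF2 target genes Nqo1, Txnrd1, Srxn1 and Me1. Every probe set that carried only one of these names was taken, which gave 22 probe sets for 10 genes, among 34945 probe sets with 1 gene each and 18193 genes in all. All 10 genes and all 22 probe sets passed the filter on low values.

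Total RNA of whole subcutaneous tumours was measured on 12 Affymetrix GeneChip Mouse Genome arrays, 3 in each of 4 groups: Res+PD1, Res+IgG, Sen+PD1 and Sen+IgG. All tumours grew in the right flank of female 129sv/ev mice from 344SQ, a mouse lung adenocarcinoma line; Res stands for its derivative resistant to anti-PD-1 and Sen for the parental line, and the mice's age and the number of independent resistant lines were not given in the sources used here. PD1 marks anti-PD-1, an antibody against an inhibitory receptor of T cells, and IgG marks control antibody, both dosed at 10 mg/kg on day 4 and again on day 7, with tumours taken on day 11. Each group had 5 mice, and as no label ties a mouse to an array, the p-values cover the spread among the arrays and nothing more. Values are log2 levels, a difference of 1 being a doubling, and in whole tumours fewer cells of a type and less RNA per cell cannot be told apart.

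NRF2, the protein of Nfe2l2, pairs with small MAF proteins and binds antioxidant response elements in the promoters of detoxifying and reducing enzymes. KEAP1 holds NRF2 for ubiquitination by a CUL3 ligase until oxidants or electrophiles modify its cysteines, and much of the control therefore acts on the protein and not on the Nfe2l2 transcript. Glutathione, made from glutamate, cysteine and glycine, is the reducing cofactor of GPX4, the enzyme that removes lipid peroxides and holds back ferroptosis, the iron-dependent cell death named in the study's title; in human lung adenocarcinoma KEAP1 is recurrently mutated.

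Because the genes share a regulator, their promoters were searched for the core of the antioxidant response element, TGACNNNGC on either strand, in RefSeq windows of build GRCm38.p6 that run from 250 bases before to 50 bases after a transcript start. The table held 11 windows for 8 of the 10 genes, with none for Gclc and Gsr. The core was found in 1 window each of 5 genes, while 4071 of 32851 windows of the same length held it (12.4%). The matches before or at the start are shown on the gene's strand, with the match in capitals, because they give the letters behind the shared regulator.
Me1, chr9:86695912-86695946, minus strand, match starting 6 bases before the start: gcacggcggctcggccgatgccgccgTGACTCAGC
Txnrd1, chr10:82859088-82859148, plus strand, match on the opposite strand, 92 bases before: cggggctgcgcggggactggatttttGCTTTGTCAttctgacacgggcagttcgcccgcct
Gclm, chr3:122245397-122245457, plus strand, match on the opposite strand, 134 bases before: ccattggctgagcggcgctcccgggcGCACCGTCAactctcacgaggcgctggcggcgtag
Nfe2l2, chr2:75704869-75704913, minus strand, match 240 bases before: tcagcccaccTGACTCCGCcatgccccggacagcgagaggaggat
The Me1 match also holds TGACTCA, the letters of an AP-1 site, which overlaps the searched core. The match of Srxn1 lay 28 bases after its start, on the opposite strand. A match describes letters and is not a measured binding site, and Keap1, Gss and Nqo1 had no match in their windows.

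The tissue carried epithelial transcripts in every group. Krt8, a keratin of simple epithelia, lay between 13.06 and 13.52 on the 12 arrays, and all 12 epithelial markers were measured. Some of them were dim in resistant tumours: Esrp1 averaged 3.05 in Res+PD1 and 2.89 in Res+IgG tumours, and Ocln 4.09 and 4.14. Of the lung lineage markers, Nkx2-1, the lineage's transcription factor gene, lay between 3.78 and 4.16 and Sftpa1, a surfactant protein gene, between 3.14 and 3.72, both close to the dim threshold of 3.32 (the 25th percentile of all values). Other genes of that list were brighter: Foxa2, a foregut transcription factor gene, lay between 9.06 and 9.70, Abca3, a lipid transporter of lamellar bodies, between 7.53 and 8.71, and Sftpb, a surfactant protein gene, between 5.73 and 8.68. Host tissue varied between arrays of a group: the mean of 12 skeletal muscle markers was 6.79 on Sen+IgG array 1 against 9.96 to 10.79 on the other 2 arrays of that group, and 11.51 on Sen+PD1 array 3 against 9.75 to 10.19. These 2 arrays were taken as standing apart. Res+PD1 array 1 also lay low, at 6.40 against 8.69 and 9.27 on the other arrays of its group. For the 10 genes, calls that end without any of these 3 arrays are given with the value without it. Single calls of other genes were not followed in this way. The difference between 3' and 5' Gapdh control probe sets, a sign of RNA quality, was -0.03 to 0.09 on Res arrays and 0.14 to 0.38 on Sen arrays, without overlap. The part of host tissue and of RNA quality in the differences below was not tested.

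**Figure D1:**
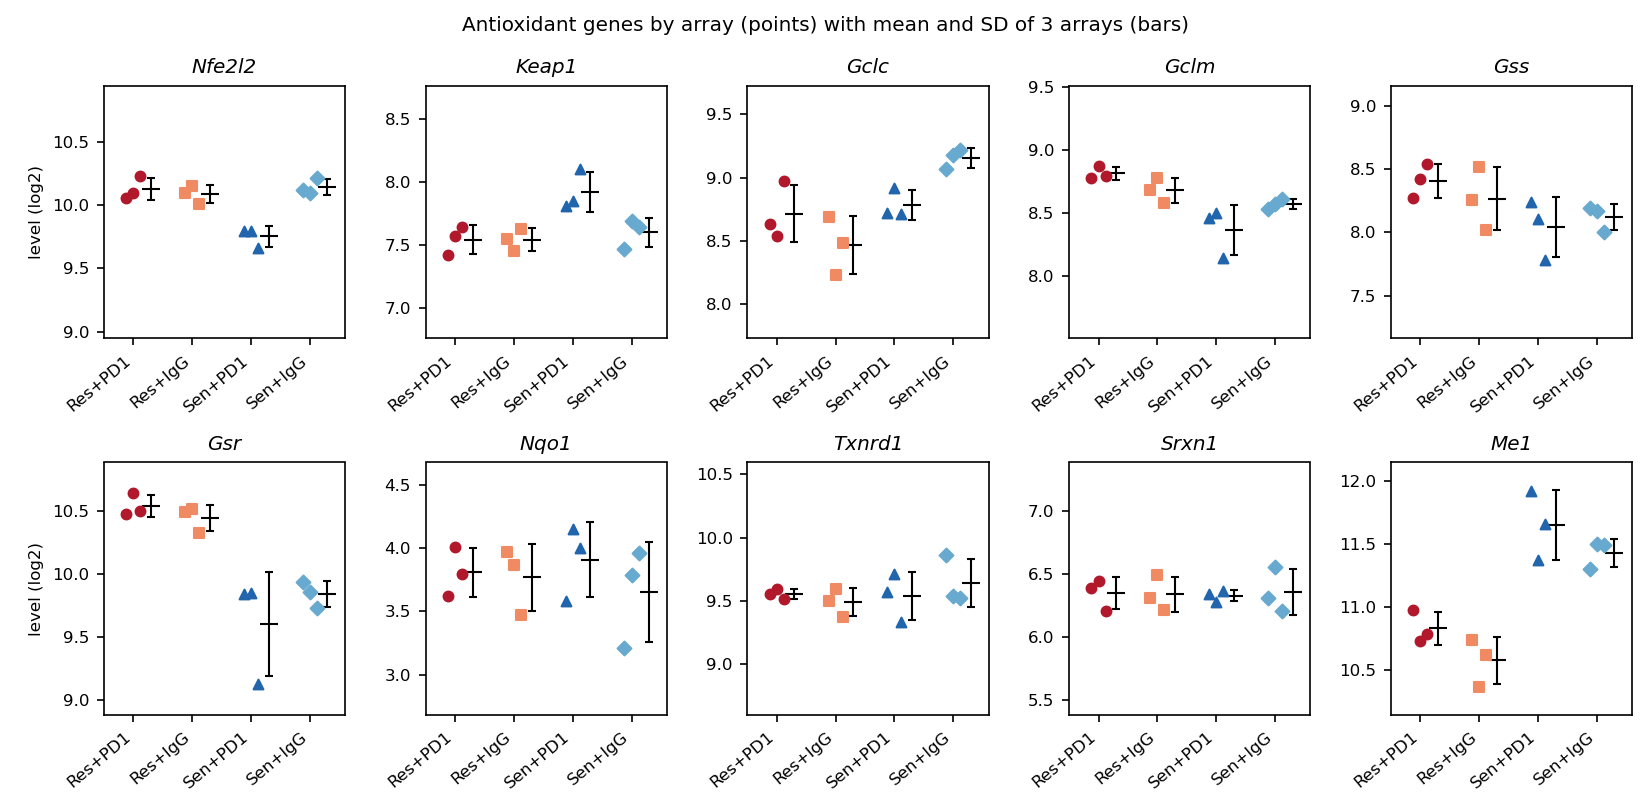
Level (log2) of each of the 10 genes by array, from the probe set with the highest mean, for Res+PD1, Res+IgG, Sen+PD1 and Sen+IgG from left to right; points are arrays, and bars beside them the mean and SD of 3 arrays, with every panel spanning 2 log2 units. Me1 sits lower and Gsr higher on all Res arrays, Gclc is highest in Sen+IgG tumours, and Nfe2l2 is lowest in Sen+PD1 tumours.

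The resistant and the parental tumours differed in a few antioxidant genes in opposite directions. Under control IgG, 3 of 10 genes passed the test: Gsr was higher, and Me1 and Gclc were lower, in Res+IgG than in Sen+IgG tumours. Across all 15493 genes tested, 16.2% were called in this comparison at a limma adjusted p under 0.05. Under anti-PD-1, 5 of 10 genes passed: Gsr, Gclm and Nfe2l2 were higher, and Me1 and Keap1 lower, in Res+PD1 than in Sen+PD1 tumours, where 33.5% of all genes were called. The median difference of the 10 genes was -0.04 under IgG and 0.02 under anti-PD-1, against medians over all genes of 0.07 and 0.07. Resistant and parental arrays were fully separated for 3 of 10 genes under IgG (38.8% of all genes) and for 6 of 10 under anti-PD-1 (45.7% of all genes). With 10 genes, these counts are not read as particular to the set.

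Both regulators passed the test in anti-PD-1 tumours and neither did in IgG tumours, and the interaction that compares these differences did not pass for either gene. Nfe2l2, measured by probe set 1416543_at, read 10.06, 10.10 and 10.23 in Res+PD1 tumours and 9.80, 9.80 and 9.66 in Sen+PD1 tumours. Under IgG it read 10.10, 10.15 and 10.01 in Res+IgG tumours and 10.12, 10.10 and 10.22 in Sen+IgG tumours. The 3 Sen+PD1 arrays were thus the lowest of the 12, and the other 3 groups overlapped. The difference between the lines was 0.38 under anti-PD-1 (SE 0.0793, limma adjusted p = 0.00456) and -0.06 under IgG (adjusted p = 0.633, 95% interval -0.24 to 0.12). A second probe set of Nfe2l2, 1457117_at, ran the other way. It was dim, with values of 3.80, 3.28 and 3.46 in Res+PD1 tumours and 3.88, 4.20 and 4.09 in Sen+PD1 tumours, and its difference was -0.54 (adjusted p = 0.0283 over all probe sets). With the mean of both probe sets for the gene, the Nfe2l2 difference was -0.08 (adjusted p = 0.546).

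Keap1, the adaptor that presents NRF2 to its ligase, mirrored Nfe2l2 in its brighter probe set. Probe set 1450746_at read 7.42, 7.57 and 7.64 in Res+PD1 tumours and 7.81, 7.85 and 8.10 in Sen+PD1 tumours, without overlap. The difference was -0.38 under anti-PD-1 (SE 0.103, limma adjusted p = 0.0167) and -0.06 under IgG (adjusted p = 0.734, 95% interval -0.28 to 0.17). The call ended without Sen+PD1 array 3, at -0.29 (adjusted p = 0.0515), and without Res+PD1 array 1, at -0.32 (adjusted p = 0.0677). The other probe set, 1450747_at, pointed up: it read 6.87, 6.85 and 6.88 in Res+PD1 tumours and 6.60, 6.41 and 6.63 in Sen+PD1 tumours, a difference of 0.32 (adjusted p = 0.0907 over all probe sets). With the mean of both probe sets, the Keap1 difference was -0.03 (adjusted p = 0.818), so its direction rests on the choice of probe set.

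Genes of glutathione synthesis were called in opposite directions, each in 1 comparison. Gclc encodes the catalytic subunit of glutamate-cysteine ligase, the rate-limiting enzyme. Its probe set 1455959_s_at read 8.69, 8.23 and 8.48 in Res+IgG tumours and 9.07, 9.18 and 9.22 in Sen+IgG tumours, so every Res+IgG array was below every Sen+IgG array. The difference was -0.69 (SE 0.136, limma adjusted p = 0.0078), or 0.62-fold, and probe set 1424296_at fell by 0.64 (adjusted p = 0.0129 over all probe sets). Under anti-PD-1 the groups overlapped: Gclc read 8.63, 8.54 and 8.97 in Res+PD1 tumours and 8.72, 8.92 and 8.71 in Sen+PD1 tumours, a difference of -0.07 (adjusted p = 0.726, 95% interval -0.37 to 0.23).

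Gclm, the modifier subunit that makes the same ligase more efficient, showed the called difference in the other comparison. It read 8.78, 8.87 and 8.79 in Res+PD1 tumours and 8.46, 8.50 and 8.14 in Sen+PD1 tumours on probe set 1418627_at. All Res+PD1 arrays lay above all Sen+PD1 arrays, and the difference was 0.45 (SE 0.0993, limma adjusted p = 0.00607). The second probe set, 1439050_at, was higher by 0.49 (adjusted p = 0.0478 over all probe sets). Under IgG, Gclm read 8.68, 8.78 and 8.58 in Res+IgG tumours and 8.53, 8.57 and 8.61 in Sen+IgG tumours, which overlapped, and the difference was 0.11 (adjusted p = 0.469, 95% interval -0.11 to 0.33). Gss, glutathione synthetase, which adds glycine in the last step, did not pass in either comparison. It read 8.27, 8.42 and 8.54 in Res+PD1 tumours and 8.24, 8.11 and 7.78 in Sen+PD1 tumours, a difference of 0.37 (adjusted p = 0.0759, 95% interval 0.05 to 0.69). Gss passed without Sen+PD1 array 1, at 0.47 (adjusted p = 0.0439), and with each array centred on its median, at 0.47 (adjusted p = 0.0319). Its IgG difference was 0.15 (adjusted p = 0.516, 95% interval -0.18 to 0.47).

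Gsr, glutathione reductase, which returns oxidised glutathione to its reduced form with NADPH, was called higher in the resistant tumours in both comparisons, with the largest positive difference of the 10 genes in each. Probe set 1421817_at read 10.48, 10.64 and 10.50 in Res+PD1 tumours and 9.84, 9.85 and 9.13 in Sen+PD1 tumours. In IgG tumours it read 10.49, 10.52 and 10.33 for Res+IgG and 9.94, 9.86 and 9.73 for Sen+IgG. All 6 Res arrays were above all 6 Sen arrays. The difference was 0.93 under anti-PD-1 (SE 0.166, limma adjusted p = 0.00184), or 1.91-fold, and 0.60 under IgG (SE 0.166, adjusted p = 0.0327). Sen+PD1 array 3 was the lowest, and without it the anti-PD-1 difference was 0.70 and still called. The IgG call of this probe set ended when Sen+IgG array 1, 2 or 3 or Res+IgG array 1 or 2 was left out (differences 0.55 to 0.65, adjusted p 0.0546 to 0.101). Probe set 1421816_at gave 1.22 (adjusted p = 0.000113 over all probe sets) under anti-PD-1 and 0.88 (adjusted p = 0.00148) under IgG.

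Me1, cytosolic malic enzyme, which makes NADPH from malate, had the opposite pattern. Probe set 1416632_at read 10.98, 10.73 and 10.79 in Res+PD1 tumours and 11.92, 11.37 and 11.66 in Sen+PD1 tumours. Under IgG it read 10.74, 10.37 and 10.62 in Res+IgG tumours and 11.30, 11.50 and 11.49 in Sen+IgG tumours. Every Res array lay below every Sen array. The difference was -0.82 (SE 0.143, limma adjusted p = 0.00171) under anti-PD-1 and -0.85 (SE 0.143, adjusted p = 0.00343) under IgG, 0.57-fold and 0.55-fold. Probe set 1430307_a_at was lower as well, by -0.57 (adjusted p = 0.00844 over all probe sets) and -0.81 (adjusted p = 0.00318).

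The remaining NRF2 target genes did not pass the test between the lines on the probe sets that stood for them. Nqo1, NAD(P)H quinone dehydrogenase, often used as a readout of NRF2 activity, had 1 probe set, with 3.62, 4.01 and 3.80 in Res+PD1 tumours, 3.97, 3.87 and 3.47 in Res+IgG tumours, 3.58, 4.15 and 4.00 in Sen+PD1 tumours and 3.21, 3.79 and 3.96 in Sen+IgG tumours. All groups overlapped, and 11 of 12 arrays exceeded the dim threshold of 3.32, none by reaching more than 4.15, so the precision for Nqo1 is limited. Its differences were -0.10 under anti-PD-1 (limma adjusted p = 0.752, 95% interval -0.57 to 0.37) and 0.12 under IgG (adjusted p = 0.737, 95% interval -0.36 to 0.59).

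Srxn1, sulfiredoxin, which repairs overoxidised peroxiredoxins, was not called on its brightest probe set, with differences of 0.02 (adjusted p = 0.904, 95% interval -0.22 to 0.26) under anti-PD-1 and -0.02 (adjusted p = 0.917, 95% interval -0.26 to 0.22) under IgG. None of its 4 probe sets was called in either comparison of the lines. Txnrd1, cytosolic thioredoxin reductase, read 9.55, 9.59 and 9.51 in Res+PD1 tumours and 9.57, 9.71 and 9.33 in Sen+PD1 tumours on probe set 1421529_a_at, a difference of 0.01 (limma adjusted p = 0.943, 95% interval -0.25 to 0.27). Its dimmer probe set 1424486_a_at read 6.28, 6.18 and 6.21 in Res+PD1 tumours and 5.74, 5.80 and 5.71 in Sen+PD1 tumours, without overlap, and was called at 0.47 (adjusted p = 0.0216 over all probe sets). The probe sets of Txnrd1 thus differ, and which transcripts each detects was not analysed here.

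Over the 22 probe sets, 6 were called under IgG (2 higher and 4 lower in Res) and 10 under anti-PD-1 (6 higher and 4 lower). Over all 35054 probe sets tested, the shares called were 18.7% and 34.9%.

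**Figure D2:**
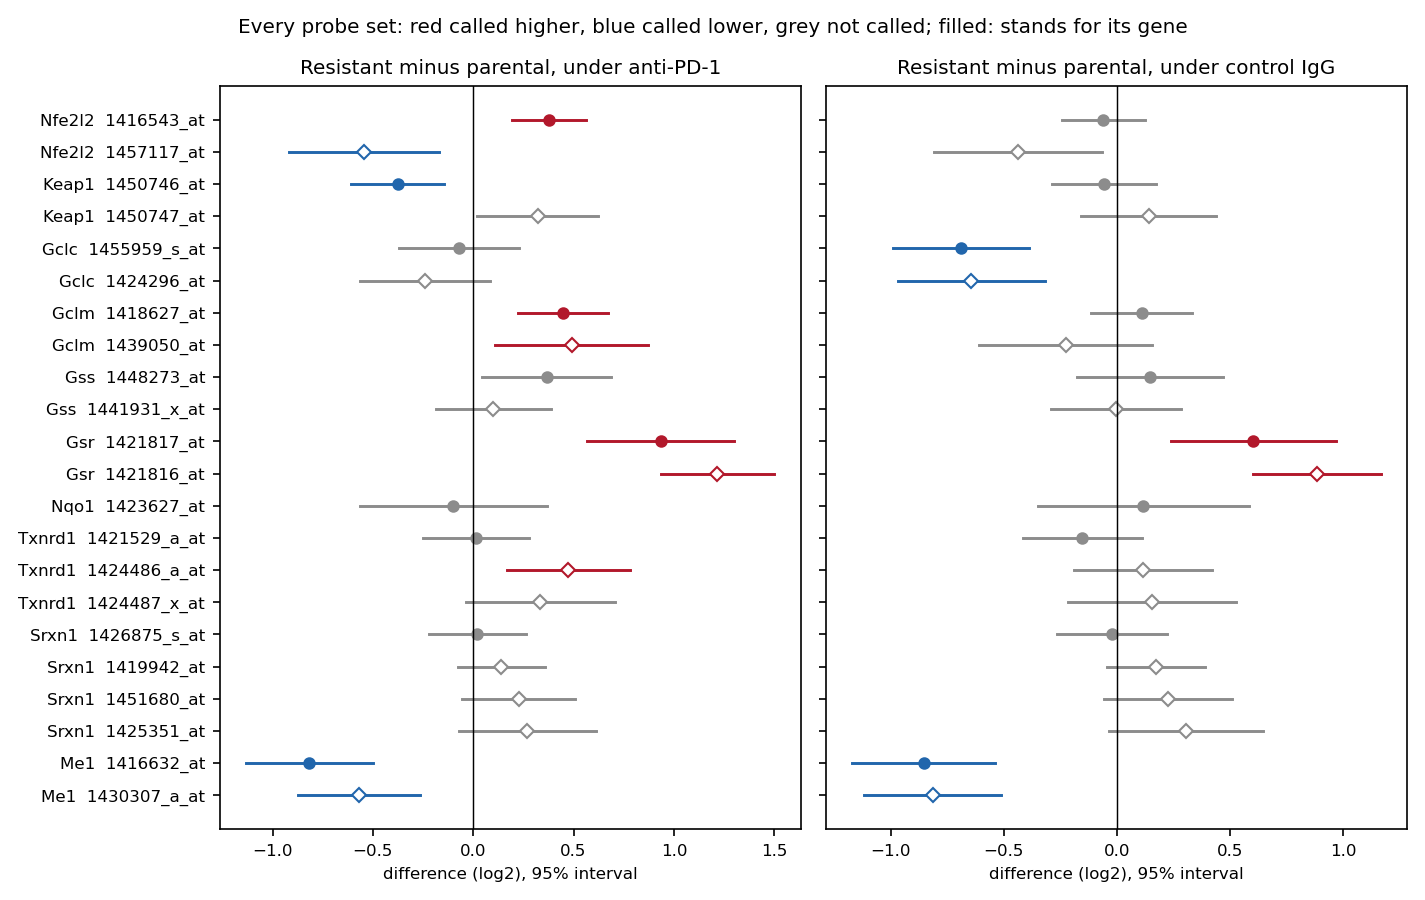
Difference between resistant and parental tumours (log2, with 95% interval) for all 22 probe sets, under anti-PD-1 on the left and control IgG on the right; filled circles are the probe sets that stood for their genes, open diamonds the others, red called higher, blue called lower and grey not called. Both probe sets of Gsr lie right of 0 and both of Me1 left of 0 in both panels, while the probe sets of Nfe2l2 and of Keap1 lie on opposite sides of 0 under anti-PD-1.

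Anti-PD-1 left most of these genes without a called difference in either line. In parental tumours 1 of 10 genes was called, Nfe2l2, lower in Sen+PD1 than in Sen+IgG tumours by the values given above (difference -0.39, SE 0.0793, limma adjusted p = 0.0332), and 3.5% of all genes were called. With the mean of both Nfe2l2 probe sets the difference was -0.10 (adjusted p = 0.596), since probe set 1457117_at ran the other way here too, at 0.19 (adjusted p = 0.588 over all probe sets). The call did not hold under 10 of 23 alternatives, among them the groups of the comparison alone (adjusted p = 0.164) and the removal of Sen+PD1 array 3 (-0.35, adjusted p = 0.0807), of Sen+IgG array 1 (-0.41, adjusted p = 0.0611), of Sen+IgG array 2 (adjusted p = 0.0763), of Sen+IgG array 3 (adjusted p = 0.109), and of both arrays that stood apart (-0.36, adjusted p = 0.0975). It also ended without Res+IgG array 1 (adjusted p = 0.0568), Res+PD1 array 1 (adjusted p = 0.0504) or Res+PD1 array 2 (adjusted p = 0.0531). Keap1 read 7.81, 7.85 and 8.10 in Sen+PD1 tumours and 7.47, 7.69 and 7.64 in Sen+IgG tumours, without overlap, and its difference was 0.32 (adjusted p = 0.106). Gclc read 8.72, 8.92 and 8.71 in Sen+PD1 tumours and 9.07, 9.18 and 9.22 in Sen+IgG tumours, without overlap, with a difference of -0.37 (adjusted p = 0.145).

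For 4 of 10 genes the Sen+PD1 and Sen+IgG arrays did not overlap, against 22.6% of all genes. Of the 22 probe sets, 1 was called, lower, against 2.63% of all probe sets. Beside these values, the mean of the skeletal muscle markers averaged 10.5 in Sen+PD1 tumours and 9.18 in Sen+IgG tumours, all 8 endothelial markers had positive differences, and so had all 9 T and NK cell markers; none of these markers was called, and their part was not tested. Because the comparisons of treatment in parental tumours and of the lines share the Sen+PD1 or Sen+IgG arrays, low Nfe2l2 in Sen+PD1 tumours enters both.

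In resistant tumours 0 of 10 genes were called between anti-PD-1 and IgG by limma, and 0 had an unadjusted p under 0.05. Over all genes 0.0% were called, with 738 at an unadjusted p under 0.05. The differences of the 10 genes ran from 0.00 for Keap1 to 0.26 for Me1, and the lowest adjusted p was 0.896. Me1 had a 95% interval of -0.06 to 0.57 and Gclc, at 0.25, one of -0.05 to 0.55, so both intervals include 0 as well as sizable increases.

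Whether anti-PD-1 acted unequally in the lines was tested by the interaction, the difference in Res minus that in Sen. None of the 10 genes was called (0.0% of all genes, with 2713 at an unadjusted p under 0.05), though 3 members had an unadjusted p under 0.05. Gclc differed by 0.62 (SE 0.193, limma adjusted p = 0.179), Nfe2l2 by 0.44 (SE 0.112, adjusted p = 0.15) and Gclm by 0.34 (SE 0.14, adjusted p = 0.254). The median of the 10 interaction values was 0.19, against 0.03 over all genes.

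**Figure D3:**
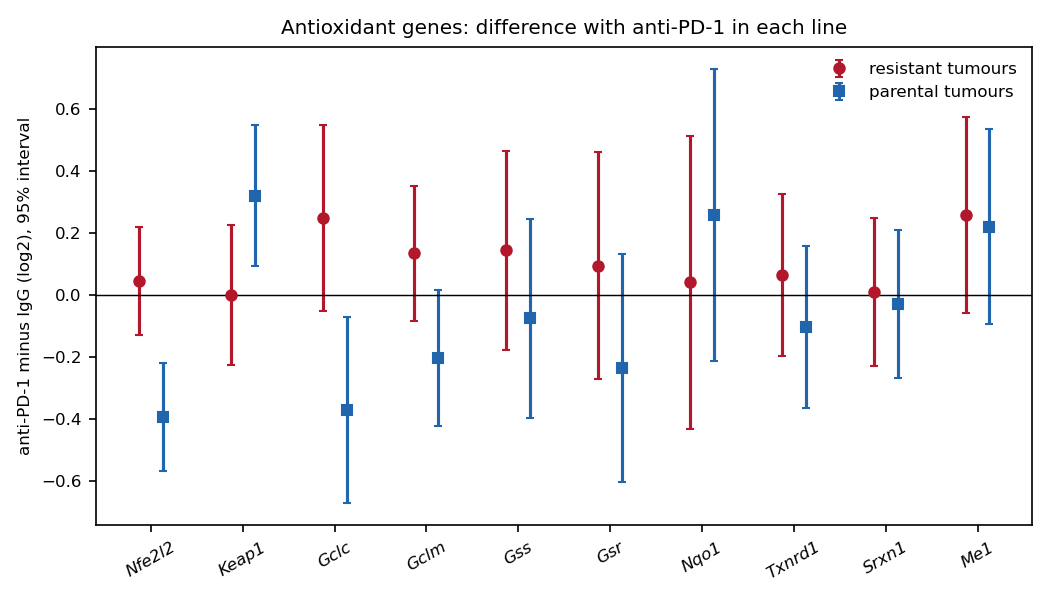
Difference between anti-PD-1 and control IgG (log2, with 95% interval) for each of the 10 genes, in resistant tumours (red circles, left of each pair) and parental tumours (blue squares, right). All 10 intervals of the resistant tumours include 0; in parental tumours those of Nfe2l2, Keap1 and Gclc do not, and Nfe2l2 alone passed the adjusted test.

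The other genes of the pathway were read from 4 lists, which like the 10 genes were chosen with earlier results of these data known. Among 16 NRF2 regulators, 3 were higher and 6 lower in Res+PD1 than in Sen+PD1 tumours, where 33.5% of all genes were called. In Res+IgG relative to Sen+IgG tumours 1 was higher and 2 lower, against 16.2% of all genes. Mafg, a small MAF partner of NRF2, read 8.37, 8.54 and 8.38 in Res+PD1 tumours and 9.45, 9.33 and 9.25 in Sen+PD1 tumours. Its difference was -0.91 (limma adjusted p = 0.00018), and under IgG it was -0.52 (adjusted p = 0.00816). In parental tumours Mafg was higher with anti-PD-1, by 0.50 (adjusted p = 0.0343), the 1 regulator called there. Mafk at 0.34 (adjusted p = 0.0711), Nfe2l1, a relative of Nfe2l2, at 0.30 (adjusted p = 0.1) and Sqstm1, an autophagy receptor that binds KEAP1, at 0.27 (adjusted p = 0.188) did not pass there. The parental Mafg call ended with the Sen+PD1 and Sen+IgG groups alone, where 0 of all genes were called. Mafk, another small MAF, was lower by -0.48 (adjusted p = 0.00305), and Rbx1, the RING subunit of the ligase that ubiquitinates NRF2, was lower by -0.57 (adjusted p = 0.00713), both in Res+PD1 tumours. Rbx1 levels were low, with 3.97, 4.22 and 4.42 in Res+PD1 and 4.78, 4.73 and 4.80 in Sen+PD1 tumours. Mafk did not pass under IgG at -0.05 (adjusted p = 0.744). Btrc, which carries NRF2 to a KEAP1-independent ligase, was higher in Res+PD1 tumours by 0.54 (adjusted p = 0.0101). Under IgG, Rbx1 was lower by -0.49 (adjusted p = 0.0288) and Btrc higher by 0.46 (adjusted p = 0.0387), while Gsk3b, a kinase that marks NRF2 for that ligase, did not pass at -0.31 (adjusted p = 0.0773).

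Of 41 further NRF2 target genes 36 were tested, and they too went both ways: 12 higher and 3 lower in Res+PD1 tumours, 4 higher and 7 lower in Res+IgG tumours, relative to the parental tumours with the same antibody. The shares of all genes called were 33.5% and 16.2%. Gpx2, an epithelial glutathione peroxidase, read 5.60, 5.08 and 5.33 in Res+IgG tumours and 8.49, 8.74 and 7.33 in Sen+IgG tumours, a difference of -2.85 (limma adjusted p = 0.000927). Under anti-PD-1 Gpx2 did not pass, at -0.83 (adjusted p = 0.108), and the arrays overlapped. Akr1c13, an aldo-keto reductase gene, was lower by -1.67 under IgG (adjusted p = 6.31e-05) and by -1.04 under anti-PD-1 (adjusted p = 0.000309). Mgst3, a microsomal glutathione transferase gene, read 10.23, 10.30 and 10.44 in Res+PD1 tumours and 9.06, 9.26 and 9.0 in Sen+PD1 tumours. The difference was 1.22 (adjusted p = 7.44e-05), and 0.57 under IgG (adjusted p = 0.00696). Ptgr1, which reduces lipid aldehydes and prostaglandins, was higher in Res+PD1 tumours by 0.97 (adjusted p = 0.000134), and so was Mgst2, a relative of Mgst3, by 0.86 (adjusted p = 0.000621). Neither passed under IgG, with 0.23 for Ptgr1 (adjusted p = 0.144) and 0.15 for Mgst2 (adjusted p = 0.443). Gstp1, a cytosolic glutathione transferase gene, was higher by 0.52 under IgG (adjusted p = 0.00636) and by 0.54 under anti-PD-1 (adjusted p = 0.00201). Gsta3, another, was lower by -0.90 under IgG (adjusted p = 0.00207), though dim in Res+IgG tumours at 3.20 to 3.40. Under anti-PD-1 Gsta3 did not pass, at 0.34 (adjusted p = 0.0801). In parental tumours 5 of the 36 were lower with anti-PD-1 and 0 higher, where 3.5% of all genes were called, among them Gsta3 at -1.13 (adjusted p = 0.0122), Gpx2 at -1.69 (adjusted p = 0.0381), Ptgr1 at -0.67 (adjusted p = 0.0191) and Mgst3 at -0.65 (adjusted p = 0.022). These 5 calls ended with the Sen+PD1 and Sen+IgG groups alone, where 0 of all genes were called. Without both arrays that stood apart 100 of all genes were called, against 542 in the main fit. Leaving out Sen+IgG array 2 gave 11, and leaving out Sen+IgG array 3 gave 9.

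The median difference of the 36 targets was 0.19 under anti-PD-1 and 0.08 under IgG, beside 0.07 and 0.07 for all genes. Hmox1, haem oxygenase, did not pass, at -0.46 (limma adjusted p = 0.242) under anti-PD-1 and 0.75 (adjusted p = 0.0997) under IgG. Slc7a11, the cystine importer that feeds glutathione synthesis, read 3.42 to 3.96 in Res+PD1 tumours and 3.68 to 4.92 in Sen+PD1 tumours, a difference of -0.54 (adjusted p = 0.164), and it did not pass under IgG at -0.06 (adjusted p = 0.904). In parental tumours anti-PD-1 gave differences of 0.82 for Hmox1 (adjusted p = 0.133) and 0.46 for Slc7a11 (adjusted p = 0.365), neither called. The epithelial marker list averaged 8.28 in Res+PD1 and 8.24 in Res+IgG tumours against 8.73 in Sen+PD1 and 8.92 in Sen+IgG tumours. Its markers did not move alike, with 10 of 12 differences negative and 2 positive in each comparison of the lines. Ocln averaged 4.09 and 4.14 in these Res groups against 6.87 and 7.11 in the Sen groups. Krt19 went the other way, with 11.43 and 11.32 against 10.88 and 11.11. The part of this list in the Gpx2 difference was not tested.

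Among 25 tested genes of glutathione use and turnover, 6 were higher and 3 lower in Res+PD1 tumours (33.5% of all genes called), and 5 higher and 2 lower in Res+IgG tumours (16.2% of all genes). Under anti-PD-1 this is close to the share of all genes. Gpx8, a peroxidase of the endoplasmic reticulum, read 9.27, 9.41 and 9.14 in Res+PD1 tumours and 7.29, 7.21 and 7.76 in Sen+PD1 tumours. Its difference was 1.85 (limma adjusted p = 5.71e-05), and 1.35 under IgG (adjusted p = 0.000527). Gpx4 was higher in Res+PD1 tumours by 0.38 (adjusted p = 0.00709), and at 0.21 it did not pass under IgG (adjusted p = 0.119). Gstt3, a glutathione transferase gene, was lower in both comparisons, by -0.62 (adjusted p = 0.000574) under anti-PD-1 and -0.63 (adjusted p = 0.00139) under IgG, with dim levels of 3.28 to 3.35 in Res+PD1 tumours. Hagh, a glyoxalase, was higher in both, by 0.49 (adjusted p = 0.00117) and 0.41 (adjusted p = 0.00704). Gpx7, a peroxidase of the endoplasmic reticulum, was higher under IgG by 1.03 (adjusted p = 0.00623). Under anti-PD-1 Gpx7 was higher by 0.56 (adjusted p = 0.0437), with overlapping arrays. Glo1, which uses glutathione to clear methylglyoxal, was higher in Res+PD1 tumours by 0.55 (adjusted p = 0.000371) and did not pass under IgG at 0.05 (adjusted p = 0.639). Its level was lower in Sen+PD1 than in Sen+IgG tumours by -0.51 (adjusted p = 0.0131). In that last comparison 1 of the 25 was higher, Slc3a2, the partner chain of the cystine importer, at 0.53 (adjusted p = 0.022). Gpx8 at -0.58 (adjusted p = 0.0673), Chac2, which degrades glutathione, at -0.51 (adjusted p = 0.0983) and Gpx4 at -0.13 (adjusted p = 0.422) did not pass there. The parental calls of Glo1 and Slc3a2 ended with the Sen+PD1 and Sen+IgG groups alone, where 0 of all genes were called.

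Among 20 tested thioredoxin, peroxiredoxin and superoxide enzyme genes, 8 were higher and 2 lower in Res+PD1 tumours (33.5% of all genes called), and 6 higher and 2 lower in Res+IgG tumours (16.2% of all genes). Msra, a methionine sulfoxide reductase, read 6.93, 6.92 and 7.07 in Res+PD1 tumours and 5.53, 5.92 and 5.69 in Sen+PD1 tumours, a difference of 1.26 (limma adjusted p = 0.000158), and 1.07 under IgG (adjusted p = 0.000865). Me2, a mitochondrial malic enzyme, was higher where Me1 was lower: by 0.88 under anti-PD-1 (adjusted p = 0.000297) and 0.69 under IgG (adjusted p = 0.00257). Msrb2, another methionine sulfoxide reductase, was higher in Res+PD1 tumours by 1.09 (adjusted p = 0.000661) and did not pass under IgG at 0.24 (adjusted p = 0.322). Sesn3, a sestrin, was lower in both comparisons, by -0.42 (adjusted p = 0.0114) under anti-PD-1 and -0.82 (adjusted p = 0.00088) under IgG. Txn2, mitochondrial thioredoxin, was lower under IgG by -0.38 (adjusted p = 0.00968) and did not pass under anti-PD-1 at -0.20 (adjusted p = 0.0716). Prdx4, the secretory-pathway peroxiredoxin, was higher in Res+PD1 tumours by 0.71 (adjusted p = 0.000158) and did not pass under IgG at 0.07 (adjusted p = 0.581). Prdx4 was the 1 gene of the list called in parental tumours, lower with anti-PD-1 by -0.48 (adjusted p = 0.022). Msrb2 at -0.61 (adjusted p = 0.0619), Prdx2, a cytosolic peroxiredoxin, at -0.39 (adjusted p = 0.141) and Sesn3 at -0.31 (adjusted p = 0.128) did not pass there. The parental Prdx4 call ended with the Sen+PD1 and Sen+IgG groups alone, where 0 of all genes were called. In resistant tumours 0 genes of the 4 lists were called between anti-PD-1 and IgG.

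Gsr and Nqo1 lie on mouse chromosome 8, where neighbouring genes were also higher in resistant tumours. A window of the 10 nearest tested genes on either side in RefSeq order was read for each member; the window and the genes in it were chosen after their values were seen. Of the 20 neighbours of Gsr, 13 were called higher and 2 lower under anti-PD-1, and 5 higher and 0 lower under IgG. Their medians were 0.45 and 0.29. Across all 15493 genes tested, 33.5% were called under anti-PD-1 (3343 higher and 1843 lower). Under IgG, 16.2% were called (1384 higher and 1133 lower). Ubxn8, next to Gsr, differed by 1.01 under anti-PD-1 and 0.70 under IgG, which is about the size seen for Gsr itself. Of the 20 neighbours of Nqo1, 10 were called higher and 0 lower in each comparison, with medians of 0.40 and 0.44, while Nqo1 was not called.

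Me1 and Gclc, on chromosome 9, were lower than their neighbours' medians. The 20 neighbours of Me1 had medians of 0.19 under anti-PD-1 and 0.03 under IgG. Of them, 6 were called higher and 2 lower under anti-PD-1, and 1 higher and 1 lower under IgG. Prss35, next to Me1, was called lower in both, at -2.13 and -2.84. The neighbours of Gclc had medians of 0.11 and 0.06. Of these 20, 5 were called higher and 2 lower under anti-PD-1, and 2 higher and 3 lower under IgG. Tinag was among those called lower in both, at -1.27 and -2.45. The shares of all genes called were 33.5% under anti-PD-1 and 16.2% under IgG. The copy number of these regions was not measured on the arrays, and its part in the Gsr difference was not tested.

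**Figure D4:**
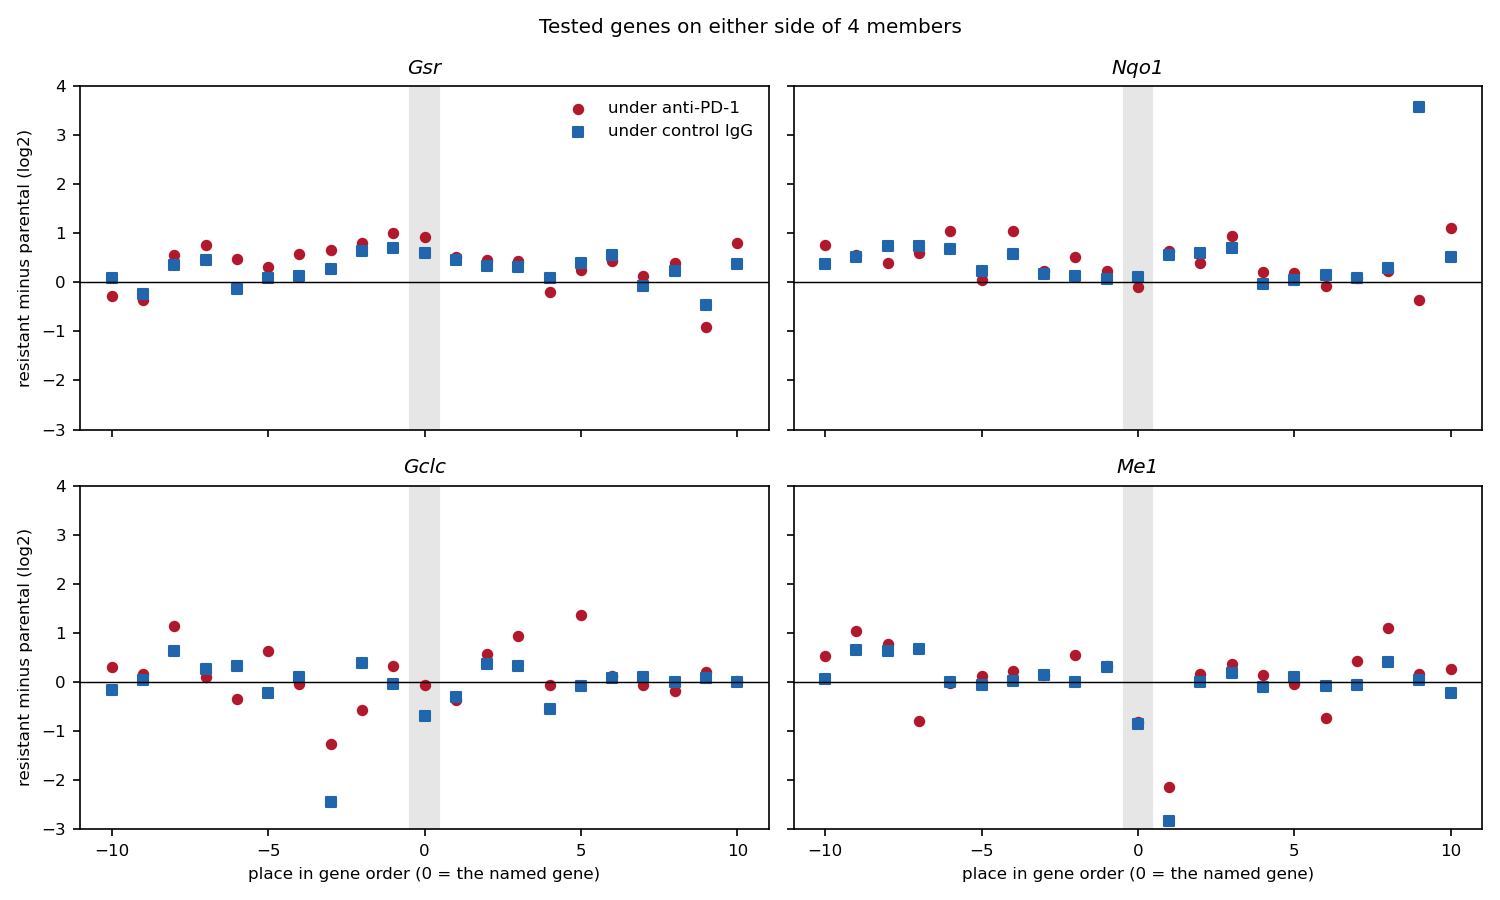
Difference between resistant and parental tumours (log2) of the 10 nearest tested genes on either side of Gsr, Nqo1, Gclc and Me1, in gene order with the named gene at 0 in the grey band; red circles are anti-PD-1 tumours and blue squares IgG tumours. Around Gsr and Nqo1 most points lie above 0, at medians of 0.29 to 0.45, while Me1 lies at -0.82 and -0.85 among neighbours whose medians are 0.19 and 0.03.

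Mean levels of some marker lists of host cell types differed between groups, and the lists are given here for comparison with the antioxidant genes. T and NK cell markers averaged 4.68 in Res+PD1 and 4.57 in Res+IgG tumours against 5.75 in Sen+PD1 and 5.36 in Sen+IgG tumours. Of 9 such markers, 4 were called lower in Res+PD1 than in Sen+PD1 tumours, where 33.5% of all genes were called. Adipocyte markers reached 8.62 on Res+IgG array 2, against 6.30 and 6.86 on the other arrays of that group. Of 8 such markers, 2 were called higher in Res+IgG than in Sen+IgG tumours, where 16.2% of all genes were called. Without Res+IgG array 2 the IgG differences of Me1 and Gclc were still called, and that of Gsr was not (0.57, adjusted p = 0.101). Muscle markers had negative differences for 12 of 12 genes in Res+PD1 relative to Sen+PD1 tumours, of which 1 was called (33.5% of all genes).

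**Figure D5:**
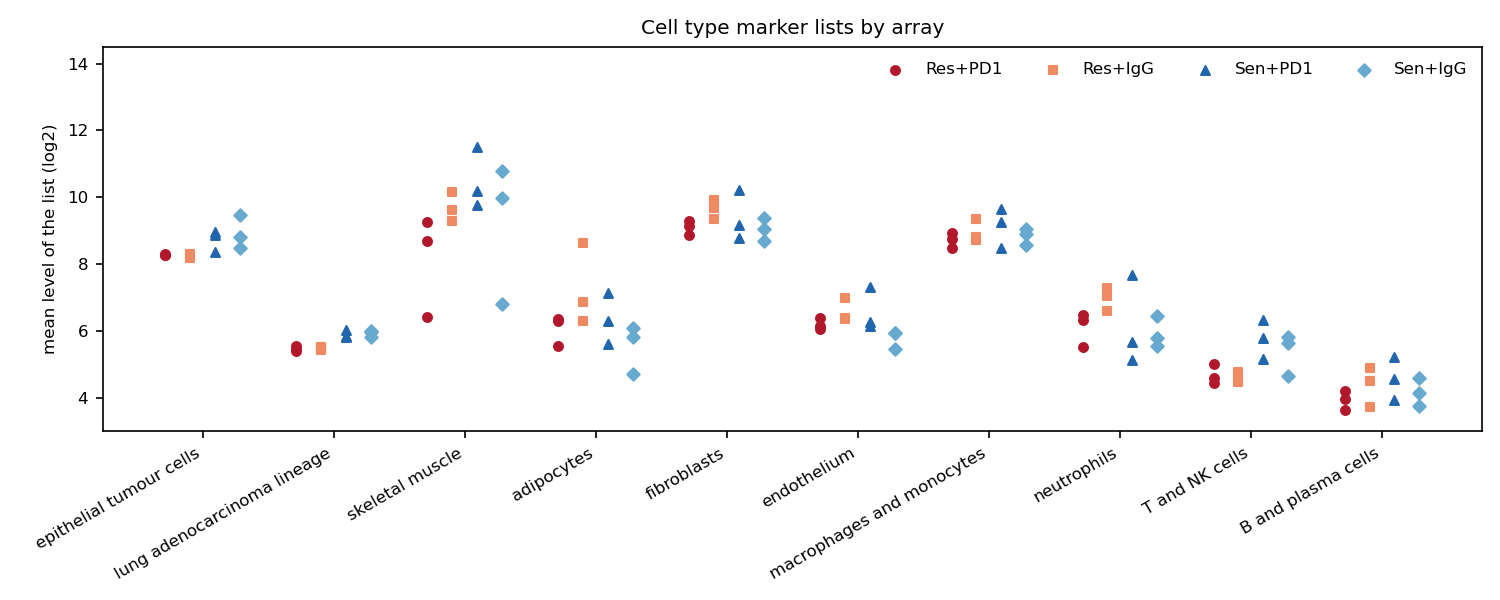
Mean level (log2) of 10 lists of cell type markers on each of the 12 arrays, by group from left to right within a list: Res+PD1, Res+IgG, Sen+PD1 and Sen+IgG. The mean of the lung lineage list lies lower on all Res arrays, though 2 of its 9 markers had positive differences under anti-PD-1 and 3 under IgG. The muscle list spreads most within a group, with 6.79 on 1 Sen+IgG array and 6.40 on 1 Res+PD1 array.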

How the data were processed

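Biotin-labelled RNA was hybridised to the arrays, as the labels' protocols state. The deposited data are 1 table from the authors, with a log2 value per probe set and array to 2 decimals; the log2 scale was read from the values, which run from 1.62 to 13.88, and the normalization and summarization methods are not given in the sources used here. Identical arrays were looked for and 0 pairs found. Groups come from the sample titles.

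Of 45101 probe sets, 64 controls and 932 with several genes were set aside for the fit over genes. In all 34945 carried 1 gene, of which 34741 were matched by gene number to RefSeq GRCm38.p6 names. The probe set with the highest mean stood for a gene, and genes needed 3 arrays above the 25th percentile (3.32), which left 15493. Group means over all 12 arrays and 5 contrasts were fitted in R 4.3.3 by limma 3.58.1, two-sided, with Benjamini-Hochberg adjustment over all genes and calls under 0.05. A second fit took 35054 probe sets, all that passed the same filter except controls. Probe sets with several genes or no gene name were not left out of it. The fit was tested on simulated data. The number of arrays limits the precision. Alternatives changed the filter, probe set rule, normalization, weights, variance prior, samples and replicate block. Same-numbered arrays correlated in their deviations from -0.208 to 0.636, over 0.1 in 14 of 18 pairs. All 3 pairs did so between Res+PD1 and Res+IgG (0.113 to 0.174), which the rule used here takes as pairing. In the other comparisons 2 of 3 pairs did, with the highest value, 0.636, between Sen+IgG and Sen+PD1. Arrays with different numbers were not compared, so these values cannot tell whether arrays were paired. The main fit used no replicate block.

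The members, lists and alternatives were chosen with earlier results of these data known. Named were all members, the 4 smallest p of a pathway list in each contrast where members of the lists were called, Hmox1, Gpx4, Slc7a11 and the 5 genes most correlated with the mean of the 8 enzyme genes; genes beside a member on the chromosome and cell type markers are exceptions. Plots used Python 3.11.15 and matplotlib 3.10.9.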

Additional observations from a re-analysis of the deposited data

How the results depend on the processing

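Of 9 called differences among the 50 of the 10 genes, 5 kept direction and call under all 23 alternatives: Me1 in both comparisons of the lines, Gclc under IgG, and Gclm and Gsr under anti-PD-1. With the mean over a gene's probe sets, Nfe2l2 between the lines under anti-PD-1 reversed to -0.083 (0.377 in the report), since its second probe set runs the other way, and the members called were 3 in that comparison (5 in the report) and 0 for parental tumours with and without anti-PD-1 (1 in the report). The last count was also 0 with the groups of the comparison alone and without both arrays that stood apart, and ran from 0 to 1 when single arrays were left out. The cause was not tested. Between the lines, leaving out single arrays gave 2 to 3 members under IgG and 4 to 6 under anti-PD-1, while anti-PD-1 in resistant tumours and the interaction gave 0 members under every alternative run. With the replicate block the members called were 3, 5, 1, 0 and 0 and no call changed. Of all genes, 2517 were called between the lines under IgG, against 5152 with array weights and 1273 to 3483 with single arrays left out; between Sen+PD1 and Sen+IgG tumours 542 were called, against 918 with array weights, 0 with these groups alone, 100 without both arrays apart and 9 to 712 with single arrays left out; the interaction gave 0, against 121 with array weights, 3 with the replicate block and 0 to 78 with single arrays left out, the 78 without Sen+PD1 array 1. Centring each array moved the median of all genes between the lines under anti-PD-1 to 0.18, against 0.0733, and the split of called genes to 5051 higher and 1300 lower, against 3343 and 1843; under IgG it was 2102 and 887, against 1384 and 1133. Nqo1 did not pass the stricter filter and has no value there. Signal near the dim threshold limits Nqo1 and the second Nfe2l2 probe set.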

Other observations

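The mean standardized level of the 8 enzyme genes (Gclc, Gclm, Gss, Gsr, Nqo1, Txnrd1, Srxn1 and Me1) averaged 0.27 in Res+PD1, -0.17 in Res+IgG, -0.22 in Sen+PD1 and 0.12 in Sen+IgG tumours, and single arrays ran from -0.77 in both Res+IgG and Sen+PD1 to 0.48 in Res+PD1. Its Pearson correlation over the 12 arrays, which share groups and host tissue, was 0.74 with Gss and 0.68 with Gclm, 0.49 with Gsr, 0.19 with Gclc and -0.17 with Me1, so the enzymes did not vary as 1 unit. The 5 tested genes most like this mean were Zfp597 (0.94), Jrk (0.93), Prpf18 (0.93), Tirap (0.92) and Dhrs4 (0.91), picked as the highest of all genes.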
